A study of Mus musculus with 32 samples.

Results

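The 9 genes described here encode VEGF ligands and receptors, and are taken by gene symbol as members of this family, without *Figf* (VEGF-D). The family was chosen for description with earlier results of these data known. They are the ligand genes *Vegfa*, *Vegfb*, *Vegfc* and *Pgf*, the receptor genes *Flt1*, *Kdr* and *Flt4* and the co-receptor genes *Nrp1* and *Nrp2*, and all 9 were found among the 29511 genes of the count table and in the table of FPKM. RNA was sequenced from 32 samples of virgin young adult FVB/N females, as stranded mRNA libraries. WT and *Clic4* KO mice came from a cross of heterozygotes, and the KO allele is carried in every cell of the host. The 4 lung groups were WT control lungs (n = 4) and KO control lungs (n = 4), taken with no tumor, and WT and KO lungs taken 14 days after 6DT1 cells, a mouse mammary tumor line of the FVB background, had been placed in the mammary fat pad (n = 6 each). The 2 tumor groups were the primary tumors at 14 days from WT hosts (n = 6) and from KO hosts (n = 6). The 6DT1 cells carried *Clic4* in both hosts, so the tumor groups differ in the genotype of the stroma and vessels and not of the implanted cells.

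VEGF-A binds VEGFR1 (*Flt1*) and VEGFR2 (*Kdr*) on endothelial cells, and VEGFR2 passes most of the signal for endothelial growth, survival and permeability. VEGFR1 binds VEGF-A tightly with weak kinase activity, and a soluble form made from the same gene acts as a decoy. VEGF-B and PlGF bind VEGFR1, whereas VEGF-C binds VEGFR3 (*Flt4*), which is best known for the growth of lymphatic vessels. The neuropilins NRP1 and NRP2 present VEGF to these receptors and also bind class 3 semaphorins. In the normal lung, alveolar epithelial cells make VEGF-A for the dense capillary bed around them, and in tumors *Vegfa* is known to be turned on by hypoxia-inducible factors. CLIC4, the protein missing from the KO hosts, is an intracellular channel family protein known to take part in endothelial tube formation.

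The data of all 32 samples rested on 4446323 to 8318711 counts per sample. *Clic4* itself checked the labels of the lungs, at 154.58 to 229.65 FPKM in the 10 WT lungs and 55.42 to 74.56 in the 10 KO lungs. FPKM are fragments per length of transcript and per sequencing depth, so they allow levels to be compared between genes. In tumors, *Clic4* ranged from 74.7 to 82.2 FPKM in WT hosts and from 58.9 to 69.0 in KO hosts. The tissue labels were borne out by the summed FPKM of 6 alveolar type 2 markers, at 10274 to 14784 in lungs and 14.7 to 17.0 in tumors.

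The regions upstream of *Vegfa*, *Flt1* and *Kdr* are shown because these are the genes the results below turn on most. Each is 240 bases, from 250 to 11 bases before the first start site that RefSeq lists on GRCm38.p6, and is written 5′ to 3′ on the strand of the gene. Capitals mark matches on either strand to the hypoxia-inducible factor cores ACGTG and GCGTG, the GC box GGGCGG and the ETS factor motif CCGGAA. *Vegfa* is the window chr17:46032388-46032627 on the minus strand, *Flt1* chr5:147726022-147726261 on the minus strand and *Kdr* chr5:75978466-75978705 on the minus strand.
Vegfa: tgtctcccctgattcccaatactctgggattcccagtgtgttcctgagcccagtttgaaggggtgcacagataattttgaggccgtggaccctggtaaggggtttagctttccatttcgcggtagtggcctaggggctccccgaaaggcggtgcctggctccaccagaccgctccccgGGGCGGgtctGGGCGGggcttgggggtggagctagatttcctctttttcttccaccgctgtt
Flt1: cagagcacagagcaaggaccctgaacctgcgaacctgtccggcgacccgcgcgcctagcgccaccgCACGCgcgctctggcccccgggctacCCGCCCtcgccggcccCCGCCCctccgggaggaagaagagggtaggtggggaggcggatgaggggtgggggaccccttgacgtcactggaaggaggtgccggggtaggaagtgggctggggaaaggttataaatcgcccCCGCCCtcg
Kdr: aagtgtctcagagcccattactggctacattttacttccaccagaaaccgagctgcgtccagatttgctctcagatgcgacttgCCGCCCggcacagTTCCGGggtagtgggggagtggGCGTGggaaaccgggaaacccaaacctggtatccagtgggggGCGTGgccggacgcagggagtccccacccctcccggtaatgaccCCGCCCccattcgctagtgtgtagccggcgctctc

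The *Vegfa* window held 2 GC boxes, at 72 to 67 and 62 to 57 bases before the start, and no match to the other motifs. The *Flt1* window held GCGTG once, 184 to 180 bases before the start, and the GC box 3 times. The *Kdr* window held GCGTG at 131 to 127 and 89 to 85 bases before the start, the ETS factor motif once and the GC box at 2 places. These letters are common: of the 32851 windows of this length in the RefSeq table, 37.4% held ACGTG or GCGTG, 31.3% the GC box and 11.2% CCGGAA. A match is a description of the sequence and was not tested as a site.

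Among the ligands, *Vegfa* (chromosome 17 from 46016993 to 46032369, GRCm38) was by far the most abundant in lungs. The WT control lungs had 316, 325, 331 and 299 FPKM and the KO control lungs 299, 300.1, 285 and 318. At 14 days, the lowest, median and highest *Vegfa* values were 306, 326 and 365 FPKM in WT lungs and 294, 317 and 343 in KO lungs. The 4 lung groups overlapped in *Vegfa*, and the lowest lung, a KO control, was at 284.57 FPKM. In tumors from WT hosts, *Vegfa* ranged from 20.2 through a median of 31.5 to 52.9 FPKM, and in tumors from KO hosts from 33.96 through 45.6 to 57.6. The tumor groups overlapped, and the lowest tumor of all came from a WT host.

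The other 3 ligand genes of the 9 were low in both tissues, which limits what can be said of them. *Vegfb* (chromosome 19 from 6982473 to 6987651), which encodes VEGF-B, ranged from 2.74 to 6.46 FPKM over the 20 lungs and from 5.90 to 12.9 over the 12 tumors, on 15 to 57 counts per sample. *Vegfc* (chromosome 8 from 54077606 to 54187096), which encodes a ligand of VEGFR3, ranged from 4.39 to 9.17 FPKM in lungs and from 2.19 to 4.10 in tumors. Its lowest lung was thus above its highest tumor. *Pgf* (chromosome 12 from 85166635 to 85177790), which encodes PlGF, was the lowest ligand in lungs at 1.49 to 3.39 FPKM and ranged from 2.56 to 8.54 in tumors, on 11 to 57 counts per sample. Within each tissue, the genotypes overlapped in all 3 of these genes. The VEGF-D gene *Figf*, a ligand gene that is not among the 9, ranged from 16.78 to 25.85 FPKM in lungs and 2.79 to 5.81 in tumors. It is counted below among the co-receptors and modulators.

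**Figure D1:**
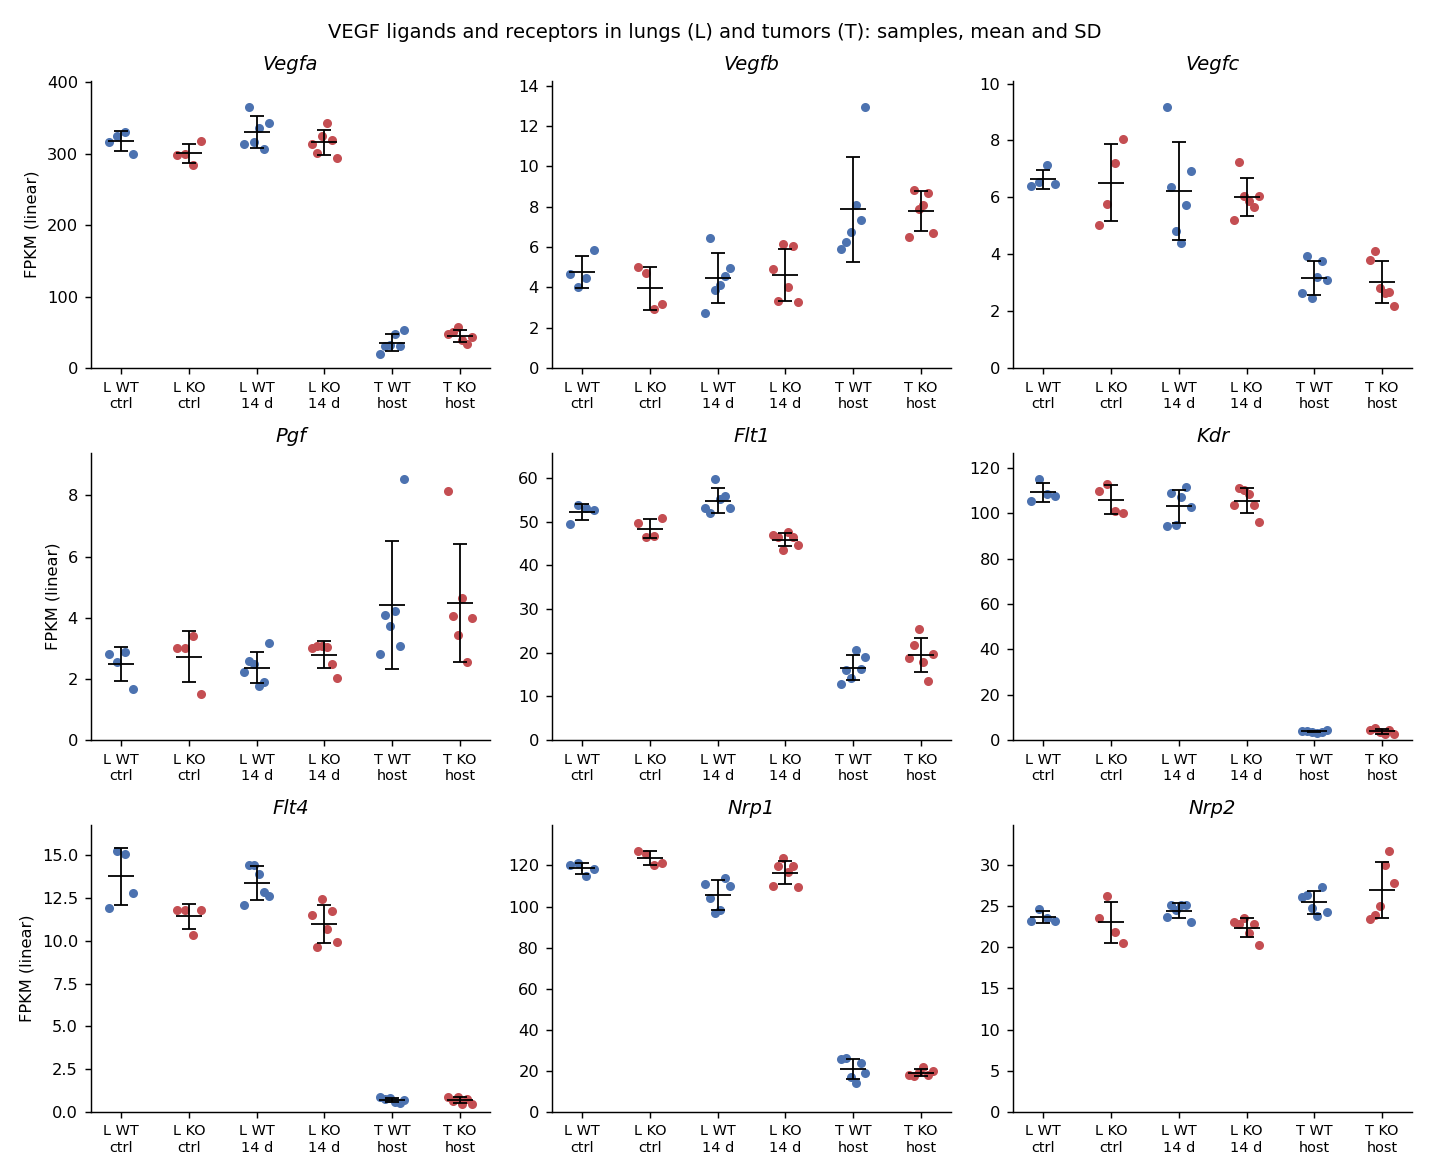
FPKM (linear axes) of the 9 genes in the 32 samples, with 1 point per sample and the mean and SD of each group in the 4 lung groups (L) and 2 tumor groups (T). *Kdr*, *Flt4*, *Vegfa*, *Nrp1* and *Flt1* lie far lower in tumors than in lungs, *Nrp2* spans 20.3 to 26.3 FPKM in lungs and 23.5 to 31.7 in tumors, and the 14-day KO lungs lie below all 14-day WT lungs in *Flt1*.

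*Kdr* (chromosome 5 from 75932827 to 75978458), the gene of VEGFR2, was the most abundant receptor gene in lungs. Its WT control values were 106, 115, 109 and 108 FPKM and its KO control values 110.1, 113, 101 and 100.3. At 14 days, *Kdr* ranged from 94.3 through a median of 105 to 112 FPKM in WT lungs and from 96.4 through 106 to 111 in KO lungs. All 4 lung groups overlapped. In tumors, *Kdr* was at 3.28, 3.77 and 4.18 FPKM (lowest, median and highest) in WT hosts and 2.59, 3.88 and 5.37 in KO hosts, on 71 to 158 counts per tumor.

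*Flt1* (chromosome 5 from 147561604 to 147726011), the gene of VEGFR1 and its soluble form, had 49.4, 53.8, 53.1 and 52.6 FPKM in WT control lungs and 49.6, 46.5, 46.8 and 50.8 in KO control lungs. At 14 days, the lowest, median and highest values were 52.0, 54.2 and 59.8 FPKM in WT lungs and 43.5, 46.4 and 47.7 in KO lungs. Every 14-day KO lung was thus below every 14-day WT lung, whereas the control groups overlapped. In tumors, *Flt1* ranged from 12.9 through 16.2 to 20.7 FPKM in WT hosts and from 13.5 through 19.3 to 25.4 in KO hosts, with overlap.

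*Flt4* (chromosome 11 from 49609263 to 49652739), the gene of VEGFR3, had 11.9, 15.3, 15.1 and 12.8 FPKM in WT control lungs and 11.8, 11.8, 10.3 and 11.8 in KO control lungs. All 4 KO control lungs were below the lowest WT control lung. At 14 days, *Flt4* ranged from 12.1 through 13.4 to 14.5 FPKM in WT lungs and from 9.64 through 11.1 to 12.5 in KO lungs, and here the ranges overlapped. In tumors it was at 0.43 to 0.87 FPKM on only 13 to 28 counts, too few to compare the hosts closely.

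The co-receptor gene *Nrp1* (chromosome 8 from 128358604 to 128503363) had 120.2, 121, 115 and 118 FPKM in WT control lungs and 127, 126, 120.4 and 121 in KO control lungs. At 14 days, it ranged from 96.6 through 107 to 114 FPKM in WT lungs and from 109 through 118 to 123 in KO lungs. The 14-day WT lungs were all below the WT control lungs, and the KO groups overlapped each other. In tumors, *Nrp1* ranged from 14.0 to 26.1 FPKM in WT hosts and from 17.3 to 22.0 in KO hosts. *Nrp2* (chromosome 1 from 62703285 to 62818695), which pairs best with VEGF-C and VEGFR3, was at 20.3 to 26.3 FPKM over all lungs and 23.5 to 31.7 over all tumors, so that it alone of the receptor and co-receptor genes overlapped between the tissues.

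In lungs, the order of levels was thus *Vegfa*, *Nrp1*, *Kdr*, *Flt1*, *Nrp2*, *Flt4*, *Vegfc*, *Vegfb* and *Pgf* by median FPKM. The neighbours *Nrp1* and *Kdr*, *Vegfc* and *Vegfb*, and *Vegfb* and *Pgf* overlapped over the 20 lungs, and the other neighbours did not. In tumors the order was *Vegfa*, *Nrp2*, *Nrp1*, *Flt1*, *Vegfb*, *Pgf*, *Kdr*, *Vegfc* and *Flt4*, in which every pair of neighbours overlapped except *Vegfc* and *Flt4*. *Kdr*, the third gene in lungs, was thus the seventh in tumors, below *Flt1* in each of the 12 tumors.

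How the tumor differs from the lung of the same kind of host was read from the 12 tumors and the 12 lungs taken at 14 days, in WT hosts. Differences between groups were tested on counts with edgeR's quasi-likelihood test over all genes, and a gene was called at a Benjamini-Hochberg adjusted p under 0.05. Of the 9 genes, 6 fell and 2 rose in tumors, where the same test called 75.5% of all 16115 genes tested. *Kdr* fell by 4.76 on the log2 scale (SE 0.13, adjusted p 4.71e-21), which is 27.1-fold, and *Flt4* by 4.20 (SE 0.12), which is 18.3-fold. *Vegfa* was 7.72-fold, *Nrp1* 4.93-fold, *Flt1* 3.28-fold and *Vegfc* 1.90-fold lower in tumors. In bulk tissue, fewer cells of a type and less RNA per cell cannot be told apart.

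The genes that rose were *Pgf*, 1.92-fold higher in tumors, and *Vegfb*, 1.81-fold higher. *Nrp2* had a log2 fold change of 0.08 (SE 0.06, adjusted p 0.252) and was not called, although with offsets for the GC content of genes its difference was 0.32 (adjusted p 2.97e-05). The 12 endothelial markers all fell, with a median log2 fold change of -4.02 beside -0.01 over all genes, among them the junction genes *Pecam1* (-3.73) and *Cdh5* (-4.30). The value of *Flt4* lay just below that median, that of *Kdr* further below it, and those of *Vegfa*, *Nrp1* and *Flt1* above it. These differences between genes were not tested.

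Levels per endothelial marker level put this on one scale. Each receptor's FPKM + 0.1 was divided by the geometric mean over 6 endothelial genes (*Pecam1*, *Cdh5*, *Erg*, *Esam*, *Egfl7* and *Tie1*), and the ratios between tissues are given as a description without a test. *Kdr* stood at 0.728 to 0.975 of the endothelial level in the 20 lungs and at 0.416 to 0.673 in the 12 tumors, with no overlap. The *Flt4* ratio was 0.0854 to 0.119 in lungs and 0.0724 to 0.165 in tumors, so that the tumors spanned the lungs. *Flt1* went the other way, with 0.364 to 0.490 in lungs and 1.58 to 3.43 in tumors.

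The neuropilin ratios were higher in tumors too. *Nrp1* stood at 0.752 to 1.05 in lungs and 1.70 to 3.70 in tumors, and *Nrp2* at 0.164 to 0.211 in lungs and 2.35 to 5.05 in tumors. Beside these ratios, the summed FPKM of 9 macrophage markers was 1544 to 2750 in lungs and 522 to 1610 in tumors. In lungs it was mostly *Lyz2*. By mean, *Lyz2* (1879 FPKM in 14-day WT lungs, 468 in tumors of WT hosts), *Marco* and *Siglecf* were lower in these tumors. *C1qa* (29.8 and 189), *C1qb*, *Cd68*, *Mrc1*, *Adgre1* and *Csf1r* were higher. The sum of 9 fibroblast and pericyte markers was 439 to 609 in lungs and 703 to 2085 in tumors. Here *Col3a1* (189 and 959), *Col1a1*, *Dcn* and *Rgs5* were higher. *Pdgfra* (93.4 and 14.9), *Pdgfrb*, *Acta2*, *Cspg4* and *Notch3* were lower. Both kinds of cell can carry *Flt1* or neuropilin transcripts, and their part in the ratios was not tested. Between members, *Vegfa* over *Kdr* was 2.66 to 3.35 in lungs and 4.89 to 15.9 in tumors, and *Flt1* over *Kdr* 0.396 to 0.632 in lungs and 3.03 to 7.22 in tumors.

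**Figure D2:**
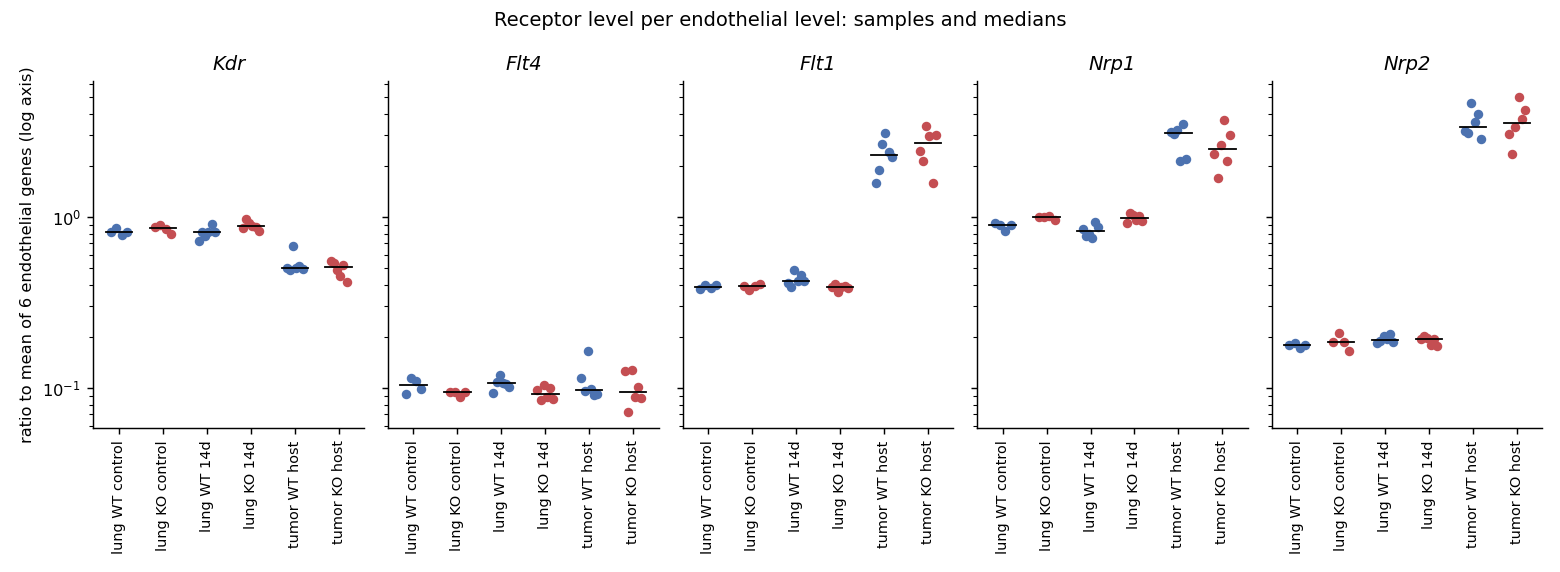
Ratio of the FPKM of 5 receptor genes to the geometric mean of 6 endothelial genes (log axis), with 1 point per sample and a line at the median of each of the 6 groups. *Kdr* lies lower in tumors than in lungs, *Flt4* overlaps, and *Flt1*, *Nrp1* and *Nrp2* lie higher in all 12 tumors than in all 20 lungs.

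Genes around the VEGF system are given here beside the 75.5% of all genes called between the tissues, and nothing particular to a list is read from its count. Of 20 oxygen sensing and hypoxia-responsive genes, 15 rose and 4 fell in tumors, with a median log2 fold change of 1.11. The glucose transporter gene *Slc2a1* rose by 3.50 and the prolyl hydroxylase gene *Egln3* by 5.31, and the hypoxia-inducible factor gene *Epas1*, known from endothelium, fell by 5.19. Of 10 secreted factors that restrain vessel growth, 7 rose and 2 fell, such as *Col18a1*, the source of endostatin, at 3.03. Of 12 class 3 semaphorin and plexin genes, 10 fell and 2 rose, of 6 angiopoietin and Tie genes 4 fell and 1 rose, and of 15 tip cell and Notch genes 11 fell and 1 rose. *Tek*, the angiopoietin receptor gene, fell by 5.78. Of 35 kinases, adaptors and effectors downstream of VEGFR2, 9 rose and 17 fell (median -0.23), and of 16 further VEGF co-receptors and modulators, 6 rose and 9 fell. Among the latter, *Ptprb*, the endothelial phosphatase VE-PTP, fell by 5.52 and the glypican gene *Gpc1* rose by 3.32. Over all genes, 37.1% rose and 38.4% fell.

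Whether the host's *Clic4* changes the VEGF genes of the primary tumor was asked by comparing tumors from KO and WT hosts. None of the 9 genes was called by edgeR, none had an unadjusted p under 0.05 and DESeq2 called none either, where edgeR called 2.51% of the 13830 genes tested. The FPKM ranges of the 2 hosts overlapped for all 9 genes, whereas they did not overlap for 1.42% of 13804 genes. The largest of these differences was that of *Vegfa*, with a mean of 45.5 ± 8.40 FPKM (SD, n = 6) in KO hosts and 35.8 ± 12.3 (SD, n = 6) in WT hosts, a log2 fold change of 0.35 (SE 0.19, edgeR adjusted p 0.408) with a 95% interval of -0.03 to 0.73.

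*Flt1* in tumors had a log2 fold change of 0.26 (SE 0.14, edgeR adjusted p 0.412) and *Nrp2* of 0.14 (SE 0.07, adjusted p 0.358). The other 6 lay between -0.08 for *Nrp1* and 0.10 for *Vegfb*. For *Kdr*, the 95% interval of the log2 fold change of 0.06 was -0.28 to 0.39, and for *Pgf*, that of 0.05 was -0.58 to 0.69. In simulated counts of this comparison, edgeR recovered 56% of 1.5-fold and 4% of 1.2-fold changes, so small differences were not detectable at this depth and number of tumors. Ratios of members to the endothelial genes or to each other had exact permutation p values of 0.169 to 0.978 between hosts. A single ratio with fully separated groups could reach an adjusted p of only 0.0693 over the 32 tests, so the lack of a call does not show that the hosts were alike.

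**Figure D3:**
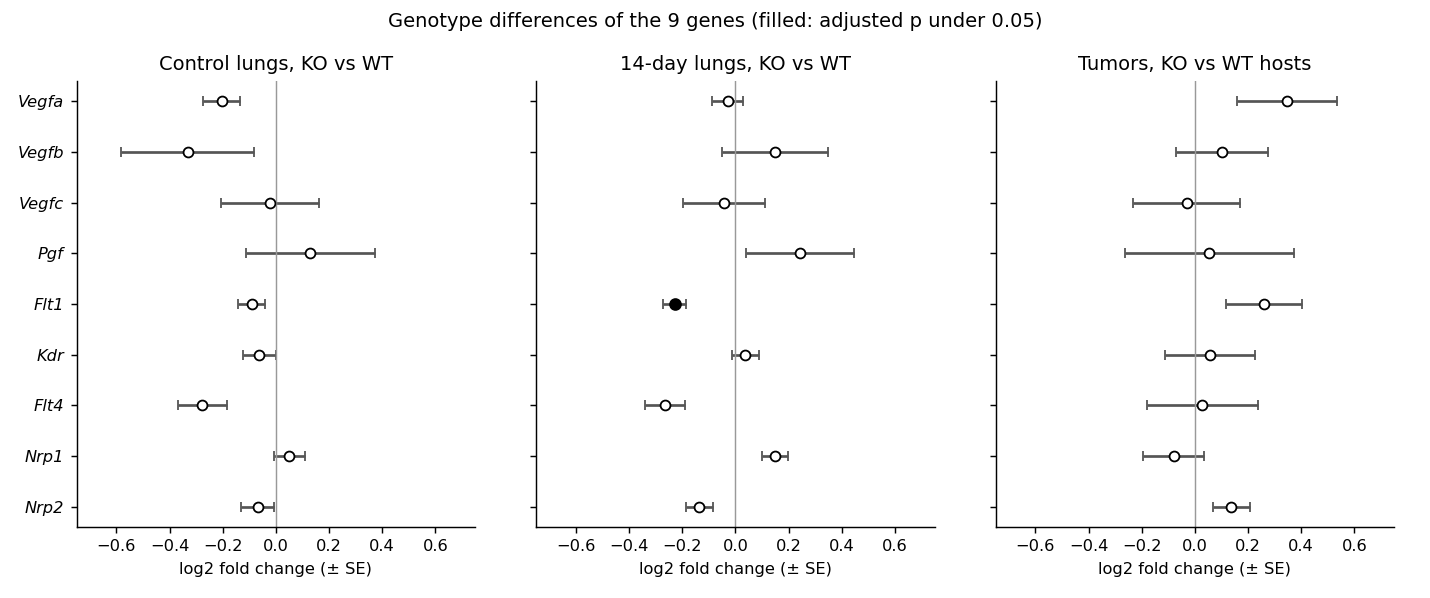
Log2 fold change (KO against WT, with its SE) of the 9 genes in control lungs, 14-day lungs and tumors from edgeR's fits, where filled points passed an adjusted p of 0.05. *Flt1* in 14-day lungs is the one filled point of the 27, at -0.23.

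Other genes of the VEGF system and its surroundings were compared between hosts in the same fit. None of the 20 hypoxia genes, 35 signalling genes, 16 co-receptors and modulators, 6 angiopoietin and Tie genes, 12 tip cell and Notch genes, 11 semaphorin and plexin genes and 10 endothelial markers tested was called by edgeR or DESeq2. In the same order, 3, 8, 3, 0, 3, 3 and 1 had an unadjusted p under 0.05 in edgeR, beside 15.5% of all genes. The median log2 fold change was 0.06 for the hypoxia genes and -0.22 for the tip cell and Notch genes, beside -0.01 over all genes. Among the hypoxia genes, the smallest p values were those of *Pfkfb3* at 0.39 (edgeR adjusted p 0.141) and *Adm* at 0.83 (adjusted p 0.160).

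Of the 10 secreted factors that restrain vessel growth, 3 rose in tumors from KO hosts and none fell, where edgeR called 2.51% of all genes, and the 3 are chemokines that bind CXCR3. The median log2 fold change of the list was 0.08, and 7 of the 10 had an unadjusted p under 0.05, in both directions. Of the 4 of these that were not called, *Col18a1* was at -0.34, *Pf4* at -0.64, *Vash1* at -0.68 and *Timp3* at 0.49 (edgeR adjusted p values of 0.130 to 0.286). *Cxcl9* ranged from 1.09 to 14.7 FPKM in WT hosts and from 17.8 to 69.1 in KO hosts, with no overlap, and rose 9.72-fold (edgeR adjusted p 0.000541). *Cxcl10* ranged from 1.78 to 5.73 and from 16.5 to 32.9 FPKM, and rose 4.93-fold (adjusted p 9.44e-05). *Cxcl11* rose 4.65-fold (adjusted p 0.00361) with overlap. These chemokines are also interferon targets that attract T cells. Of 7 T and NK cell markers 2 rose beside them, with a summed FPKM of 20.3 to 34.6 in WT hosts and 37.1 to 60.5 in KO hosts, and 1 of 7 macrophage markers rose. Their part in the chemokine difference was not tested.

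Across the 12 tumors, the members differed in what they moved with. The relation of each member to the mean log2 level of the 20 hypoxia genes and of the 6 endothelial genes was computed in tumors and in lungs, 36 relations in all, chosen after earlier values had been seen and tested by permutation with 100000 resamples. *Vegfa* followed the hypoxia genes in tumors (Pearson r = 0.859, permutation p 0.00032, adjusted 0.00576, Spearman rho = 0.818, p 0.00176, adjusted 0.0211). Without the 2 tumors farthest from the median the r was 0.751, and it was 0.954 within the 6 tumors of WT hosts and 0.574 within the 6 of KO hosts. The lowest *Vegfa* value and the lowest hypoxia level were in the same tumor, replicate 1 of the WT hosts.

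*Pgf* also followed the hypoxia genes (r = 0.806, permutation p 0.00154, adjusted 0.0139, rho = 0.671, p 0.0196, adjusted 0.0898), with an r of 0.689 without the 2 farthest tumors and of 0.879 and 0.835 within WT and KO hosts. For *Flt1*, r was 0.661 (permutation p 0.0185, adjusted 0.0954) and rho 0.748 (p 0.00694, adjusted 0.04997), with an r of 0.633 without the 2 farthest tumors. *Vegfb* had an r of 0.602 (permutation p 0.0431, adjusted 0.172) that rested on those 2 tumors, since it was -0.106 without them. Matches to ACGTG and GCGTG were counted beside these relations, and nothing is read from them. At the first start sites, *Vegfa* had none, *Flt1* and *Pgf* 1 and *Vegfb*, *Kdr* and *Nrp2* 2 each, and at the second start sites *Vegfa* had 2 and *Pgf* none.

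*Kdr* followed the endothelial genes in tumors, and its r with the hypoxia genes was -0.0733 (permutation p 0.824, adjusted 0.864). With the endothelial genes its r was 0.823 (permutation p 0.00116, adjusted 0.0139, rho = 0.846, p 0.00094, adjusted 0.0169), at 0.927 without the 2 farthest tumors and 0.812 and 0.966 within WT and KO hosts. *Flt1*, in contrast, had an r of 0.110 with the endothelial genes (permutation p 0.733, adjusted 0.860, rho = 0.0210, p 0.956). The difference between these correlations was not tested. Of the other relations in tumors, those of *Vegfc*, *Flt4*, *Nrp1* and *Nrp2* had adjusted permutation p values of 0.186 to 0.860 on Pearson's r.

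**Figure D4:**
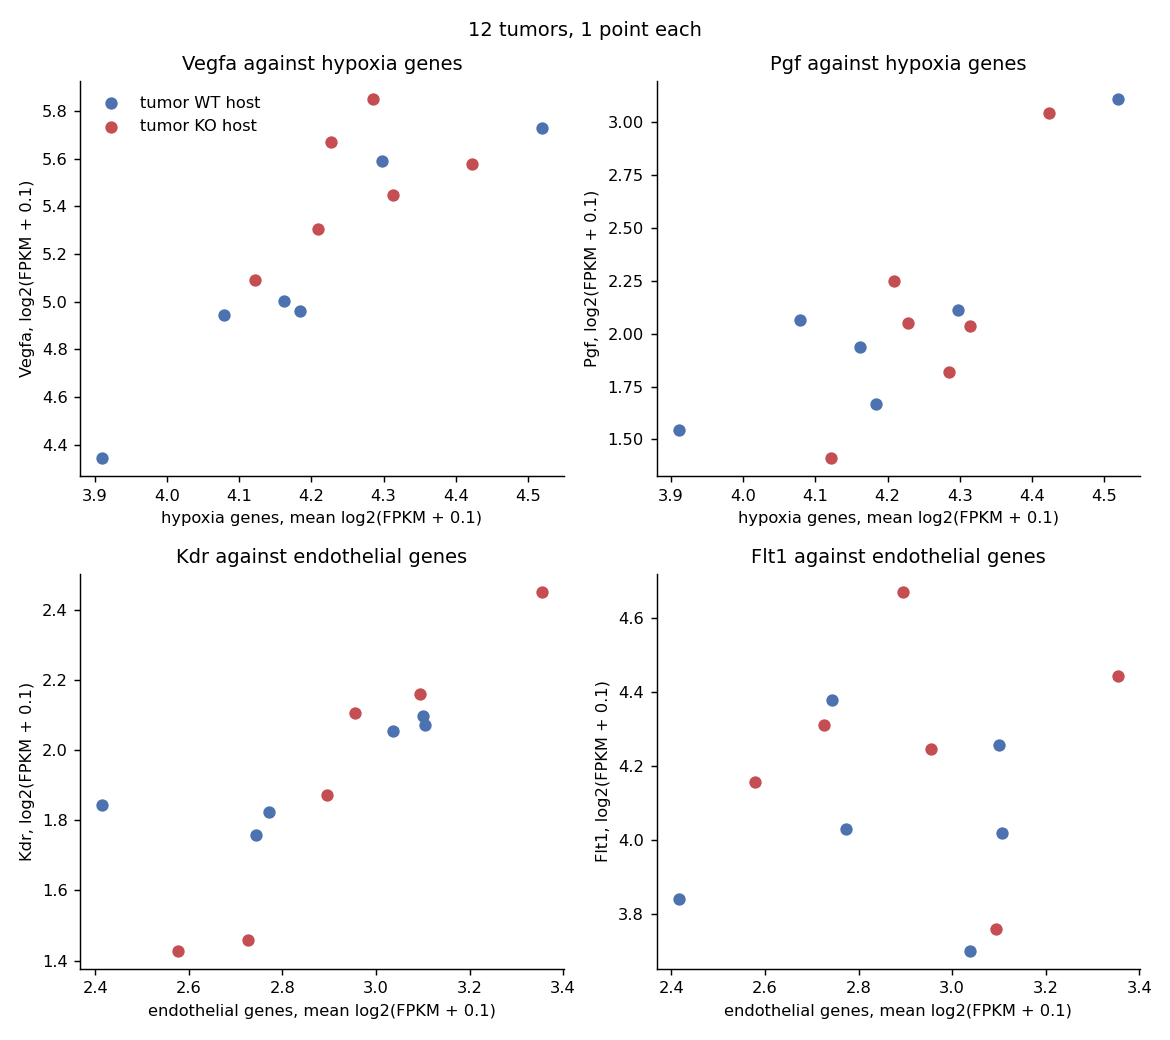
Levels of *Vegfa* and *Pgf* against the mean log2 level of 20 hypoxia genes, and of *Kdr* and *Flt1* against that of 6 endothelial genes, as log2(FPKM + 0.1) in the 12 tumors (1 point each, colored by host). *Vegfa*, *Pgf* and *Kdr* rise with the level on the x axis (r = 0.859, 0.806 and 0.823) and *Flt1* shows no trend with the endothelial genes (r = 0.110).

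The genes most like each member over the 12 tumors, by Pearson r of log2 CPM after the group means were removed and among genes with a mean of at least 5 CPM are given as a description. For *Vegfa* these were *Pmm1* (r = 0.93), *Ero1l* (0.93), which encodes an oxidase of protein folding known to respond to hypoxia, and *Vldlr* (0.93). For *Flt1* they were *Ankrd37* (0.95), a hypoxia-responsive gene, *Hgh1* (0.92) and *Pcyox1l* (0.91). *Kdr* was most like *Epas1* (0.93), *Notch3* (0.93), a receptor of pericytes, and *Cebpa* (0.92). *Nrp1* was most like *Prkca* (0.97), *Myo1g* (0.94) and *Abca9* (0.93), and *Nrp2* like *M6pr* (0.87), *Atg7* (0.87) and *Creg1* (0.87), the last 3 being genes of lysosomes and autophagy. Among members, *Vegfa* and *Flt1* had an r of 0.81 and *Kdr* and *Flt4* of 0.68.

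The question of what a distant tumor does to the VEGF genes of the lung was asked by comparing 14-day with control lungs within each genotype. In WT lungs, edgeR called none of the 9 genes, 1 had an unadjusted p under 0.05 and DESeq2 called none, where edgeR called 0% of 16029 genes at an adjusted p of 0.05 and 1884 genes (11.8%) had an unadjusted p under 0.05, and DESeq2 called 79. That gene was *Nrp1*, with 106 ± 7.13 FPKM (SD, n = 6) at 14 days and 119 ± 2.72 (SD, n = 4) in controls, a log2 fold change of -0.17 (SE 0.05, edgeR adjusted p 0.209). Its groups did not overlap, and neither did those of 2.42% of all 16004 genes. In KO lungs, none of the 9 was called by either tool or had an unadjusted p under 0.05, where edgeR called 0.0374% of genes, and no member's groups were apart, while 1.79% of genes had groups that were.

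Over both genotypes together, *Nrp1* had a log2 fold change of -0.12 between 14-day and control lungs (SE 0.04, edgeR adjusted p 0.161) and was not called, where edgeR called 0.243% of genes. DESeq2 gave it an adjusted p of 0.0463. The interaction of genotype and tumor, which asks whether the response differed between KO and WT, called none of the members by either tool and 0.00624% of genes by edgeR. No member had an unadjusted p under 0.05 there, and the smallest was that of *Flt1*, with an interaction of -0.14 on the log2 scale (SE 0.07, edgeR adjusted p 0.597). Over both genotypes, edgeR called none of the 35 signalling genes (3 with an unadjusted p under 0.05, as had 11.98% of all genes), 16 modulators (1), 16 hypoxia genes (2), 6 angiopoietin and Tie genes (1), 15 tip cell and Notch genes (1) and 12 semaphorin and plexin genes (4), and DESeq2 called 1 signalling gene, while 3 of 7 neutrophil markers rose with the tumor, *S100a8* by 1.84, *S100a9* by 1.86 and *Cxcr2* by 1.18.

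Between genotypes, the 14-day lungs gave the one call by edgeR among the members outside the comparison of tissues. *Flt1* was lower in KO lungs, at 45.9 ± 1.56 FPKM (SD, n = 6) against 54.9 ± 2.83 (SD, n = 6) in WT lungs, with no overlap. Its log2 fold change of -0.23 (SE 0.04, edgeR adjusted p 0.0360) is 14.6% lower, with a 95% interval of -0.31 to -0.14. It ranked 10 among 16029 genes by p, where edgeR called 0.0936% of them, and 0.519% of genes had groups that did not overlap. DESeq2 gave an adjusted p of 4.78e-05.

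The size of the *Flt1* difference was steady and its call was not. Over 12 fits that each dropped 1 of these lungs, its log2 fold change ran from -0.24 to -0.21 and its edgeR adjusted p from 0.0336 to 0.106. The call was lost without WT replicates 1, 3, 4 or 5 and without KO replicates 2, 3, 5 or 6. The call was lost as well with no filter on low counts (adjusted p 0.0577), with only the 2 groups compared in the fit (0.0815) and with offsets for GC content (0.0764).

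None of the other receptor and co-receptor genes was called by edgeR in the 14-day lungs, and 3 of them had an unadjusted p under 0.05, as had 8.34% of all genes. *Flt4* had a log2 fold change of -0.26 (SE 0.07, edgeR adjusted p 0.234), *Nrp1* of 0.15 (SE 0.05, adjusted p 0.330) and *Nrp2* of -0.14 (SE 0.05, adjusted p 0.449). For *Kdr* it was 0.04 (SE 0.05, adjusted p 0.901), with a 95% interval of -0.06 to 0.14. The ligands had values of -0.03 for *Vegfa*, 0.15 for *Vegfb*, -0.04 for *Vegfc* and 0.24 for *Pgf*, with adjusted p values of 0.814 to 0.973 from edgeR.

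Receptor ratios in single lungs showed *Flt1* against *Kdr* directly. The ratio of *Flt1* to *Kdr* was 0.478, 0.517 and 0.632 (lowest, median and highest) in 14-day WT lungs and 0.396, 0.444 and 0.463 in 14-day KO lungs, with no overlap. The difference of -0.29 on the log2 scale had a two-sided exact permutation p of 0.00216, the smallest that 6 against 6 allow, and an adjusted p of 0.0693 over the 32 ratios tested. *Nrp1* over the endothelial genes was higher by 0.25 in KO lungs (exact permutation p 0.00433, adjusted p 0.0693) and *Flt1* over the endothelial genes was at -0.15 (exact permutation p 0.0130, adjusted p 0.139). None of the 32 ratios passed an adjusted p of 0.05. Without WT replicate 2, and without WT replicate 5, 3 ratios passed in each case, among them *Flt1* over *Kdr* (-0.32 and -0.31) and *Nrp1* over the endothelial genes (0.23 and 0.28).

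Control lungs of the 2 genotypes were compared to see what was there before any tumor. None of the 9 genes was called by edgeR or DESeq2 and 2 had an unadjusted p under 0.05, where edgeR called 0.0187% of genes and 11.6% had such an unadjusted p. *Flt4* had a log2 fold change of -0.28 (SE 0.09, edgeR adjusted p 0.282) with groups that did not overlap, as was so for 6.25% of genes, and *Vegfa* one of -0.20 (SE 0.07, adjusted p 0.292). The slope of log2 level on GC content was higher in every WT control library than in every KO control library. With offsets for GC content, the *Flt4* difference in controls was -0.14. The part of GC content in the differences between controls was not tested further. *Flt1* in controls had a mean of 52.2 ± 1.93 FPKM (SD, n = 4) in WT and 48.4 ± 2.11 (SD, n = 4) in KO lungs, and was not called.

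Taking control and 14-day lungs together, none of the members was called for genotype by edgeR, where it called 0.175% of genes. An unadjusted p under 0.05 was found for 5 of the 9 members and for 11.6% of all genes. *Flt1* had a log2 fold change of -0.16 (SE 0.03, edgeR adjusted p 0.0525, DESeq2 0.000434) and *Flt4* of -0.27 (SE 0.06, edgeR 0.0650, DESeq2 0.00363). *Vegfa* was at -0.12, *Nrp1* at 0.10 and *Nrp2* at -0.10, with edgeR adjusted p values of 0.311 to 0.341. Over the 20 fits that each left out 1 lung, the edgeR adjusted p of *Flt1* ran from 0.0438 to 0.160 and that of *Flt4* from 0.0406 to 0.182. Both were called without WT control replicate 1 (-0.18 and -0.31), *Flt1* also without KO control replicate 4 (-0.18) and *Flt4* without 14-day KO replicate 3 (-0.29).

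Tissue and genotype were also put in one model, which asks whether the KO effect differed between tumors and 14-day lungs. No member was called by edgeR, where 0.707% of 16115 genes were, and 2 had an unadjusted p under 0.05, as had 10.9% of all genes. *Flt1* had an interaction of 0.48 on the log2 scale (SE 0.16, edgeR adjusted p 0.191) and *Nrp2* of 0.27 (SE 0.09, adjusted p 0.183), both with a higher KO to WT ratio in tumors than in lungs.

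Markers of the vessel wall and of other cell types were read beside *Flt1* in 14-day lungs. Of 12 endothelial markers, 9 had values below 0, 3 had an unadjusted p under 0.05 and none was called by edgeR or DESeq2 (median -0.06), and their summed FPKM was 1474 to 1706 in WT and 1395 to 1613 in KO lungs. *Ptprb* was at -0.22 (edgeR adjusted p 0.103) and the tip cell gene *Esm1*, a known target of VEGF, at -0.77 (adjusted p 0.143). The lymphatic marker *Lyve1* fell by 0.92 (edgeR adjusted p 0.0491), and was the 1 gene called of the 5 lymphatic markers tested. Of the others, *Prox1* was at -0.27, *Pdpn* at -0.24, *Mmrn1* at 0.07 and *Reln* at 0.14. The summed FPKM of 6 lymphatic markers was 127 to 182 in WT and 85.0 to 138 in KO lungs and is made up almost wholly of *Lyve1* (means of 73.9 and 38.8) and *Pdpn* (70.1 and 57.3), so it largely restates *Lyve1*. The defining lymphatic gene *Prox1* was at only 0.31 to 1.03 FPKM over all lungs.

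The heart muscle gene *Myh6* fell by 0.66 in 14-day KO lungs (edgeR adjusted p 0.00310), from 96.9 to 133 FPKM in WT to 59.2 to 76.1 in KO lungs. It was the 1 gene called by edgeR of the 7 cardiac markers, of which 4 had an unadjusted p under 0.05 (median -0.40). Of the others, *Tnnt2* was at -0.57, *Tnni3* at -0.51, *Myl7* at -0.40, *Actc1* at -0.08, *Mb* at 0.04 and *Nppa* at 0.56. With no filter on low counts edgeR called 2 of the 7, and DESeq2 called 3. The summed FPKM of the 7 was 343 to 511 in WT and 273 to 363 in KO lungs. The part of lymphatic and cardiac tissue in the *Flt1* difference was not tested. The semaphorin gene *Sema3c*, whose protein binds the neuropilins, rose by 0.31 (edgeR adjusted p 0.0370), with 115 to 143 FPKM in WT and 151 to 178 in KO lungs and no overlap. It also rose by 0.27 over control and 14-day lungs together (adjusted p 0.0136). With GC offsets, neither *Lyve1* nor *Sema3c* was called. In 14-day lungs edgeR called none of the 35 signalling genes (4 with an unadjusted p under 0.05, as had 8.34% of all genes), 16 hypoxia genes (0), 6 angiopoietin and Tie genes (3), 15 tip cell and Notch genes (5) and 16 modulators (2), and DESeq2 called 2, 0, 1, 1 and 1 of them. Of the 15 genes called in all, 7 lie on chromosome 4 with *Clic4*, and *Flt1* and *Sema3c* lie on chromosome 5.

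Across the 20 lungs, and with the group means kept, *Flt4* followed the endothelial genes most closely (r = 0.786, permutation p 8e-05, adjusted 0.00288, rho = 0.769, p 0.00019, adjusted 0.00684). Its r was 0.685 without the 2 farthest lungs and 0.561 after the group means were removed. *Vegfa* had an r of 0.473 with the endothelial genes (permutation p 0.0350, adjusted 0.158), and of 0.761 after the group means were removed. *Flt1* had an r of 0.577 with the endothelial genes (permutation p 0.00754, adjusted 0.0497, rho = 0.627, p 0.00392, adjusted 0.0353), at 0.549 without the 2 farthest lungs. After the group means were removed it was -0.0562, so the relation did not hold within groups. For *Kdr*, the endothelial genes gave an r of 0.241 (permutation p 0.304, adjusted 0.643), and the hypoxia genes one of -0.569 (permutation p 0.00829, adjusted 0.0497) that was -0.365 without the 2 farthest lungs.

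Over the 20 lungs, again after the group means were removed, other genes were the most like each member. *Vegfa* was most like *Ap5z1* (r = 0.91), *Emid1* (0.88) and *Ttc28* (0.88), and *Flt1* like *Clstn1* (0.84), *Gatad2a* (0.81) and *Trak1* (0.79). *Kdr* was most like *Sema6d* (0.82) and *Flt4* like *Plxnd1* (0.87), an endothelial semaphorin receptor gene. *Nrp1* was most like *Dach1* (0.81) and *Nrp2* like *Traf5* (0.78). Of the members themselves, *Kdr* and *Nrp2* had an r of 0.67 and *Vegfa* and *Flt4* of 0.65.

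The mean transcript length that RSEM used for each gene, which follows from the count, the FPKM and the library size, shifts where the mix of transcripts shifts. No member had a called difference in this length in 35 exact permutation tests, but a single length with fully separated groups could reach an adjusted p of only 0.0758 with 6 against 6 samples and 0.167 with 6 against 4, so these tests could not call it. For *Vegfa*, whose transcripts differ by splicing, the length was 1693 to 1778 bases in WT control lungs and 1485 to 1737 in 14-day WT lungs, a difference of -0.12 on the log2 scale (two-sided exact permutation p 0.0429, adjusted p 0.823). It was 1567 to 1649 bases in KO control lungs, 1534 to 1830 in 14-day KO lungs and 1676 to 2238 over all tumors.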

How the data were processed

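Bulk stranded mRNA libraries were sequenced from 20 lungs and 12 tumors. The authors aligned paired reads to mm10 with STAR and counted them with RSEM, and deposited 1 table of gene counts (whole numbers, not normalized) and 1 of FPKM (per transcript length and library). Samples were grouped from the labels. Per the study's text, the samples of a group came from separate animals, and the labels do not say which lung and tumor came from the same mouse.

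Counts were tested with edgeR 4.0.16 in R 4.3.3 (TMM factors, filterByExpr, quasi-likelihood F test, 1 mean per group, Benjamini-Hochberg adjustment over all genes tested), in 1 fit of the 12 tumors (13830 genes), 1 of the 20 lungs (16029) and 1 of tumors with 14-day lungs (16115). The limit of adjusted p was 0.05. The SE is the log2 fold change over the root of F. Ratios used FPKM + 0.1, and ratios and lengths were tested by two-sided exact permutation of samples (scipy 1.17.1). The alternatives were DESeq2 1.42.0, RLE size factors, no filter, only the compared groups, other limits, a replicate block, GC offsets and each sample left out.

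The 9 genes and the 19 gene lists were chosen with earlier results of these data known. Besides all 9 genes and *Clic4*, the text could name, per list and comparison, up to 3 called genes per direction by smallest p, or up to 2 where none was called, and the 3 genes most correlated with each member. Others are named only as markers or chosen after their values were seen. Upstream sequences and motifs are from RefSeq on GRCm38.p6, and positions from the GENCODE annotation of GRCm38. Tested on simulated data, edgeR recovered 10% of 1.2-fold, 66% of 1.5-fold and 90% of 2-fold changes in the comparison of 14-day lungs (16029 genes).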

Additional observations from a re-analysis of the deposited data

Results flagged for a closer look

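In 54 groups of 4 to 6 samples, the highest or lowest sample was compared with the gap that Dixon's 95% critical value allows, which chance exceeds in about 1 in 20 groups, and 4 values stood apart. In tumors of WT hosts, replicate 6 had 12.9 FPKM of *Vegfb*, where the other 5 had 5.90 to 8.09. The same tumor had 8.54 FPKM of *Pgf*, where the others had 2.82 to 4.23. In tumors of KO hosts, replicate 1 had 8.14 FPKM of *Pgf*, where the others had 2.56 to 4.65. These 2 tumors also had the highest mean log2 level of the 20 hypoxia genes of all 12 tumors, at 4.52 and 4.42. In KO control lungs, replicate 3 had 10.34 FPKM of *Flt4*, where the other 3 lay between 11.79 and 11.82.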

How the results depend on the processing

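In 14-day lungs, the members called between KO and WT went from 1 to 0 with no filter, with only the compared groups, with GC offsets, with the replicate block, with GC offsets and the block together, with a 2-fold limit and with the study's 1.5-fold limit at an adjusted p of 0.25, and was 0 to 1 with 1 lung left out. RLE size factors changed none of the 10 counts of members called, and the block changed no other. An adjusted p of 0.25 alone gave 2 there, 1 in WT lungs at 14 days against control, 1 over both genotypes, 2 for genotype over both conditions and 2 for the interaction of genotype and tissue. DESeq2 gave 1 for 14 days against control over both genotypes and 2 for genotype over both conditions, where leaving out 1 lung gave 0 to 2. With a 2-fold limit, 5 members were called between tissues. With *Pecam1* and *Cdh5* as the only endothelial genes, 2 ratios were called in 14-day lungs, and 0 to 3 with 1 lung left out. The cause was not tested.

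Signs changed for values that were not called. *Kdr* over the endothelial genes in tumors was 0.00473 with *Pecam1* and *Cdh5* only, and -0.10 otherwise. With 1 sample left out, the tumor log2 fold changes ran from -0.15 to 0.0583 for *Vegfc*, -0.21 to 0.37 for *Pgf*, -0.0704 to 0.15 for *Kdr* and -0.0519 to 0.13 for *Flt4*, and those of 14-day lungs from -0.0624 to 0.00119 for *Vegfa* and -0.12 to 0.11 for *Vegfc*. The tumor ratio differences ran from -0.20 to 0.00376 for *Flt4* and -0.10 to 0.12 for *Nrp2* over the endothelial genes, and -0.13 to 0.0877 for *Vegfc* over *Flt4*.

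Over all genes, DESeq2 called 545 where edgeR called 347 in tumors, 71 against 15 in 14-day lungs, 54 against 3 in control lungs, 79 against 0 and 51 against 6 at 14 days in WT and KO lungs, 17 against 1 for the interaction, 128 against 39 and 85 against 28 for the means, and 201 against 114 for the interaction with tissue. The labels do not say that a number marks a shared mouse or litter. The deviations of same-numbered tumors of the 2 hosts correlated at -0.304 to 0.149, and those of 14-day lungs at -0.103 to 0.292, with 0 of 6 and 2 of 6 best with their own number. Between 14-day lungs and tumors they correlated at 0.0385 to 0.208 in KO hosts, with 5 of 6 best with their own number, a hint from the data and not from the design, and at -0.0389 to 0.0781 in WT hosts, with 1 of 6. With this replicate block, *Flt1* in 14-day lungs had an adjusted p of 0.114, and with GC offsets as well 0.165. Low counts limit *Vegfb*, *Vegfc* and *Pgf*, and *Flt4* in tumors. GC offsets, the relations over samples and the list counts with GC offsets were chosen after seeing the data.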
